A study of Mus musculus with 15 samples.

Results

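The genes described here are 10 genes that mark or maintain the identity of thalamic neurons, namely *Tcf7l2*, *Lef1*, *Gbx2*, *Rora*, *Foxp2*, *Lhx2*, *Lhx9*, *Zic1*, *Zic4* and *Prkcd*. They were chosen by symbol from the 25080 genes listed in each deposited table, and all 10 passed the filter on low values that left 13471 genes for testing. RNA-seq had been run on the microdissected, unsorted thalamus of mice of 2 to 4 months. The saline groups had 4 control and 4 cKO libraries, and the cocaine groups had 4 libraries titled *Maged1* WT (called control here) and 2 titled *Maged1* cKO. All mice were given saline for 3 days and then either saline or cocaine at 20 mg/kg for 5 days by intraperitoneal injection. In the cKO, Cre under the *Vglut2* promoter deletes the floxed part of *Maged1* in glutamatergic neurons, so the RNA of other cells keeps the full transcript. The paper describes the product that remains after deletion as a truncated protein and a functional knockout. The study's methods describe the cKO mice as hemizygous males and their controls as floxed littermates on a C57Bl6J background, while the titles call the controls WT. The study's methods count more cocaine than saline samples among the unsorted ones, while the titles name more saline than cocaine samples. The third cKO cocaine sample was not analysed here.

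The adult thalamus relays sensory, motor and arousal signals to the cortex through glutamatergic neurons, and each nucleus keeps its identity through transcription factors switched on during development. TCF7L2 and LEF1 are the DNA-binding partners of beta-catenin in canonical Wnt signalling, GBX2, LHX2 and LHX9 are homeodomain factors of the developing thalamus, and RORA is an orphan nuclear receptor of sensory relay nuclei. FOXP2 is a forkhead factor, ZIC1 and ZIC4 are zinc finger proteins, and *Prkcd*, which encodes protein kinase C delta, is a widely used marker of relay neurons. In GRCm38, *Tcf7l2* lies on the plus strand of chromosome 19 (55741820 to 55933654), *Lef1* on that of chromosome 3 (131110471 to 131224356), *Rora* on that of chromosome 9 (68653786 to 69388246), *Foxp2* on that of chromosome 6 (14901349 to 15441977) and *Lhx2* on that of chromosome 2 (38339281 to 38369733). *Gbx2* (89927956 to 89931179) and *Lhx9* (138825186 to 138848577) lie on the minus strand of chromosome 1.

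*Maged1* followed the genotype in the titles after saline and went against it after cocaine. Its level was 149.9 to 167 scaled TPM in the control saline libraries and 64.6 to 77.4 in the cKO saline libraries. Under the control label it was 58.5 to 87.7 after cocaine, and under the cKO label 154 and 174. Scaled TPM are the deposited TPM, which are relative to transcript length and library total, divided by a factor for each library that removes a shift shared by most genes (trimmed mean of M values, TMM). Every direction below that involves cocaine libraries rests on labels that *Maged1* contradicts. Within each label, *Maged1* did not overlap between the cocaine and saline libraries. A treatment difference within a label therefore cannot be told apart from a difference in *Maged1*. Furthermore, the genotype tag of 4 saline libraries (control saline 3 and 4, cKO saline 1 and 2) names the other genotype, although their *Maged1* fits the titles. The TMM factors were 0.807 to 0.939 in the cocaine libraries and 1.07 to 1.22 in the saline libraries, and did not overlap. The glutamatergic neuron gene *Slc17a6*, which encodes VGLUT2, had 69.3 to 104 scaled TPM over the 14 libraries.

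The 10 genes spanned a wide range of levels. *Prkcd* was the most abundant, with a mean of 169 scaled TPM over 14 libraries, above 98.7% of the tested genes. It was followed by *Tcf7l2* with 92.0, *Rora* with 58.8 and *Zic1* with 42.7. *Gbx2*, with 14, and *Lhx9*, with 11.8, were intermediate. *Foxp2*, with 9.26, *Lef1*, with 6.83, *Lhx2*, with 6.37, and *Zic4*, with 5.67, were the lowest. Neighbours in this order were well separated at the top, since *Prkcd* exceeded *Tcf7l2* and *Tcf7l2* exceeded *Rora* in 14 of 14 libraries. *Rora* exceeded *Zic1* in 13 libraries, *Zic1* exceeded *Gbx2* in 14, and *Gbx2* exceeded *Lhx9* in 12. *Lhx9* exceeded *Foxp2* in 12 libraries and *Foxp2* exceeded *Lef1* in 14. By contrast, *Lef1* exceeded *Lhx2* in only 8 libraries, and *Lhx2* exceeded *Zic4* in 11. The highest library was between 1.68 (*Tcf7l2*) and 3.6 (*Zic4*) times the lowest. Because whole tissue was sequenced, fewer cells of a type and less RNA per cell cannot be told apart for any of these genes.

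**Figure D1:**
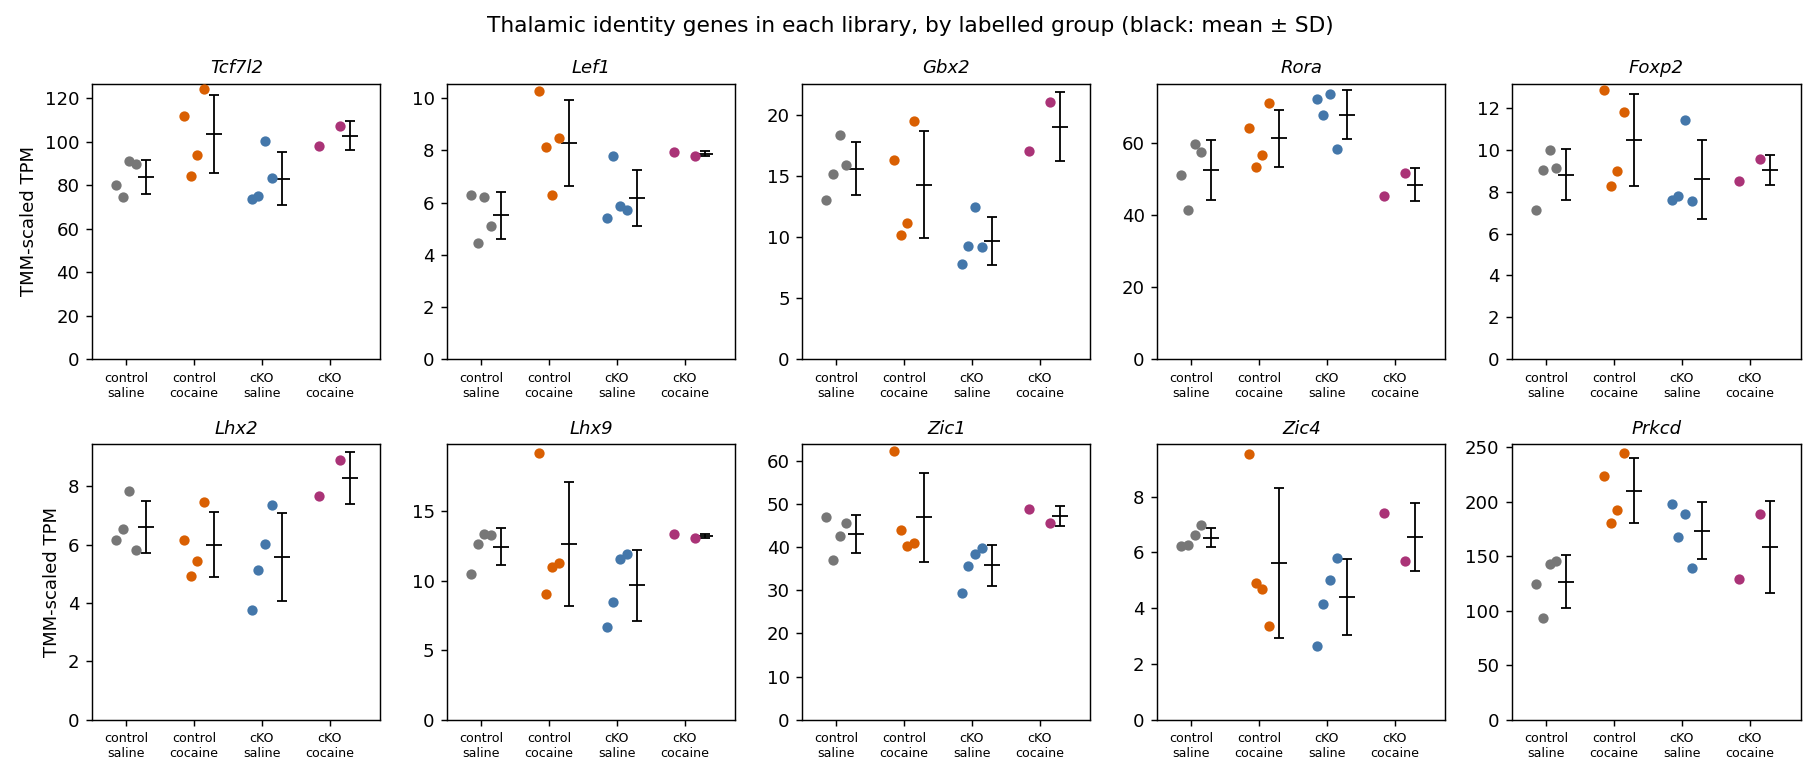
Level of each of the 10 genes in each library, in TMM-scaled TPM on a linear axis from 0, by labelled group (4 libraries each, but 2 for cKO cocaine), with the mean ± SD in black. *Prkcd* in the control-label cocaine libraries (180.2 to 245) lay above all control saline libraries (93.6 to 145), and *Gbx2* in the cKO saline libraries (7.81 to 12.4) lay below all control saline libraries (13.0 to 18.3).

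A first question was how repeated cocaine changed these genes under the control label. Of the 10 genes, 2 rose and 0 fell in the libraries labelled control cocaine against control saline. *Prkcd* rose 1.67-fold and *Lef1* 1.45-fold. The background was 1.43% of tested genes called higher and 1.66% called lower, where a call needed both a limma p, adjusted by Benjamini-Hochberg, under 0.05 and a log2 fold change of 0.5 or more in size. By the adjusted p alone, the same 2 genes passed, against 24.4% of tested genes. The groups did not overlap for 1 of the 10, *Prkcd*, against 25.2% of tested genes. The median log2 change was 0.16 over the 10 genes and 0.00 over all tested genes, with 6 of the 10 positive. These calls depended on the scaling. In the TPM as deposited, where the median of all genes was -0.34, 0 of the 10 were called higher and 2 lower (*Gbx2* and *Zic4*), and the calls over all tested genes went from 192 higher and 223 lower to 53 higher and 2372 lower.

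The relay marker *Prkcd* had 125, 93.6, 143 and 145 scaled TPM in the control saline libraries. It had 223, 180.2, 193 and 245 in the libraries labelled control cocaine. Each cocaine library was therefore above each saline library. The log2 change was 0.74 (SE 0.17, adjusted p = 0.00687 in limma) and the exact two-sided permutation p was 0.0286, the smallest that 4 against 4 libraries allow. In the TPM as deposited, where the median of all genes in this contrast was -0.34, the *Prkcd* change was 0.37 (adjusted p = 0.0580), or 0.70 relative to that median. Over all alternatives the limma adjusted p ran from 0.00538 to 0.0766. In the cKO saline libraries *Prkcd* had 198, 168, 189 and 139 scaled TPM, and in those labelled cKO cocaine 129 and 189. These groups overlapped, and the log2 change was -0.14 (SE 0.20, adjusted p = 0.669 in limma). Without cKO cocaine replicate 1 it was 0.13, so its sign rested on that library. The *Prkcd* gene lies on the minus strand of chromosome 14 (30595354 to 30626210, GRCm38).

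*Lef1*, the less abundant of the 2 beta-catenin partners, had 6.28, 4.43, 6.22 and 5.11 scaled TPM in the control saline libraries. The libraries labelled control cocaine had 10.3, 8.13, 6.27 and 8.46. One cocaine library, replicate 3, lay within the saline range, and the other 3 lay above it. The log2 change was 0.54 (SE 0.15, adjusted p = 0.0174 in limma) with an exact permutation p of 0.0571. Without control cocaine replicate 1 it was 0.44 (adjusted p = 0.0394 in limma), under the fold minimum, and without control saline replicate 2 it was 0.45 (adjusted p = 0.0534 in limma). In the TPM as deposited it was 0.19 (adjusted p = 0.259), or 0.53 relative to the median of all genes, and the adjusted p ran from 0.00671 to 0.259 over all alternatives. Under the cKO label, *Lef1* had 5.39, 7.78, 5.87 and 5.71 after saline and 7.95 and 7.80 after cocaine. Both cocaine libraries were above the 4 saline libraries, and the log2 change was 0.34 (SE 0.18, adjusted p = 0.202 in limma).

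*Tcf7l2*, the other beta-catenin partner and the most abundant transcription factor of the 10, had 80.4, 74.4, 91.2 and 89.7 scaled TPM after control saline. The libraries labelled control cocaine had 112, 84.3, 93.8 and 124. These groups overlapped, since replicate 2 lay within the saline range, and the log2 change was 0.29 (SE 0.12, adjusted p = 0.106 in limma). The cKO saline libraries had 73.9, 75.0, 100.3 and 83.2, and the 2 labelled cKO cocaine had 98.1 and 107. The log2 change there was 0.31 (SE 0.15, adjusted p = 0.163 in limma). Averaged over both genotype labels, which gives a value that does not turn on which cocaine group is the cKO, the log2 change with cocaine was 0.30 for *Tcf7l2* (SE 0.10, adjusted p = 0.0303 in limma) and 0.44 for *Lef1* (SE 0.12, adjusted p = 0.0109 in limma). In that average 0 of the 10 genes passed both criteria, against 2.07% of tested genes, and these 2 genes passed the adjusted p alone, against 33.1% of tested genes. An unadjusted p under 0.05 was met by 5 of the 10 and 42.9% of all tested genes. The *Tcf7l2* average was -0.08 in the TPM as deposited, where the median of all genes was -0.34, or 0.26 relative to that median.

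A second question was how cocaine changed the genes under the cKO label. Of the 10, *Gbx2* was called higher, 1.94-fold, and 0 were called lower. The background was 1.97% of tested genes called higher and 1.17% called lower. By the adjusted p alone *Gbx2* and *Rora* passed, against 20.2% of tested genes. The groups did not overlap for 6 of the 10 (*Zic1*, *Lhx2*, *Lhx9*, *Gbx2*, *Lef1* and *Rora*), against 43.8% of tested genes. Only 2 cocaine libraries had to lie outside 4 saline ones here. The other contrast of 2 against 4 libraries, cKO label against control label after cocaine, had a share of 17.5%. The reason for the high share was not tested. The median log2 change was 0.37 over the 10 genes and 0.01 over all tested genes, with 8 of the 10 positive. In the TPM as deposited, where the median of all genes was -0.35, 0 of the 10 were called higher and 2 lower (*Prkcd*, -0.53, adjusted p = 0.0336, and *Rora*, -0.87, adjusted p = 0.000616 in limma), and the calls over all tested genes went from 266 higher and 157 lower to 65 higher and 3082 lower.

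**Figure D2:**
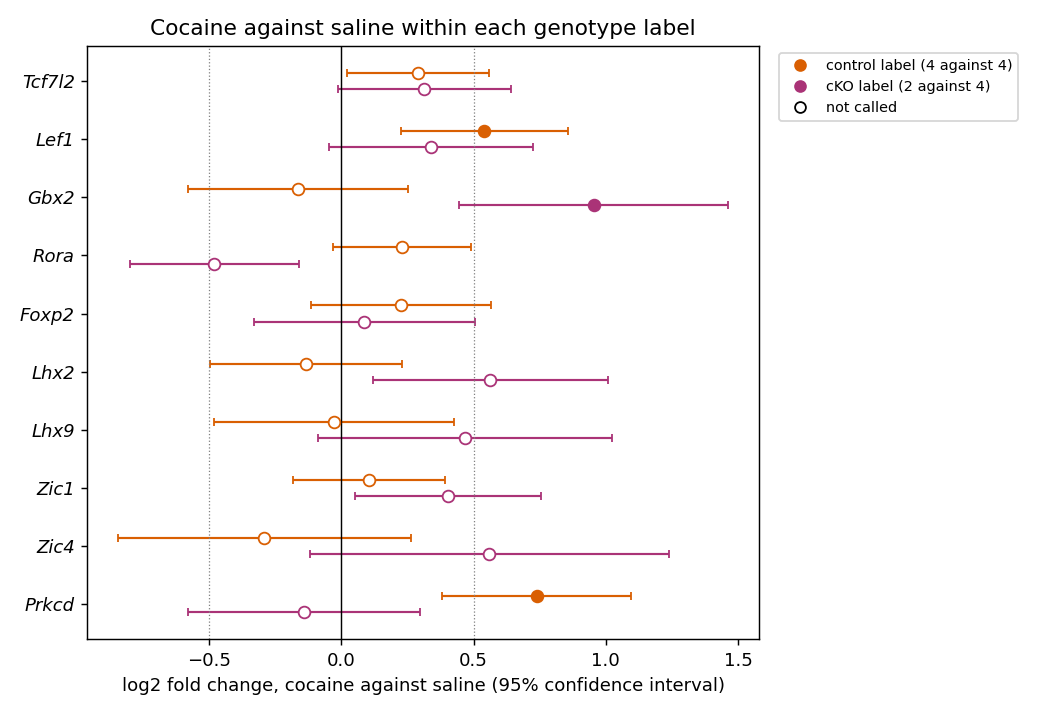
Log2 fold change of cocaine against saline for each gene, with its 95% confidence interval from limma, within the control label (orange, 4 against 4 libraries) and the cKO label (purple, 2 against 4). Filled points are the 3 called changes, *Prkcd* (0.74) and *Lef1* (0.54) under the control label and *Gbx2* (0.95) under the cKO label, and dotted lines mark the fold minimum of 0.5.

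*Gbx2*, a homeodomain factor required for thalamic differentiation, had 13.0, 15.2, 18.3 and 15.8 scaled TPM in the control saline libraries. It had 7.81, 9.21, 12.4 and 9.17 in the cKO saline libraries. All 4 cKO values were below all 4 control values. The log2 difference was -0.67 (SE 0.19) with an exact permutation p of 0.0286, but it did not pass the test across all genes (adjusted p = 0.122 in limma). The libraries labelled cKO cocaine had 17.0 and 21.0, above every cKO saline library. That log2 change was 0.95 (SE 0.24, adjusted p = 0.0138 in limma) with an exact permutation p of 0.0667, the smallest that 2 against 4 libraries allow. Without cKO cocaine replicate 2 it was 0.81 (adjusted p = 0.143 in limma), and in the TPM as deposited it was 0.57 (adjusted p = 0.0547), or 0.92 relative to the median of all genes. The adjusted p ran from 0.00698 to 0.351 over all alternatives. Under the control label *Gbx2* had 16.3, 10.2, 11.1 and 19.4 after cocaine. Replicate 1 lay within the control saline range, replicates 2 and 3 below it and replicate 4 above it, and the log2 change was -0.16 (SE 0.19, adjusted p = 0.567 in limma). In the TPM as deposited it was -0.52 and called lower (adjusted p = 0.0305 in limma), or -0.19 relative to the median of all genes.

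*Rora* showed values in the other direction. It had 72.2, 67.7, 73.6 and 58.3 scaled TPM in the cKO saline libraries and 45.3 and 51.7 in those labelled cKO cocaine. Both cocaine libraries were below the 4 saline libraries. The log2 change was -0.48 (SE 0.15, adjusted p = 0.0373 in limma), which is just short of the fold minimum. When single libraries were left out the adjusted p ran from 0.0177 to 0.209. Without cKO saline replicate 4, *Rora* (-0.55, adjusted p = 0.0257 in limma) and *Lhx2* (0.70, adjusted p = 0.0258 in limma) were called as well. In the control saline libraries *Rora* had 51.1, 41.3, 59.8 and 57.6, and in those labelled control cocaine 64.2, 53.4, 56.6 and 71.0. These groups overlapped, with a log2 change of 0.23 (SE 0.12, adjusted p = 0.188 in limma). Exons of *Rora*, *Gbx2* and *Lef1* overlap exons of a noncoding or predicted gene on the opposite strand in the GENCODE M21 annotation. The libraries were directional, but the strand setting of the quantification is not given in the sources used here, so reads of such pairs may have been shared.

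The promoter windows of *Prkcd* and *Gbx2*, genes called in opposite labels, and of the neighbours *Zic1* and *Zic4* are shown because 3 of them share a short motif. Windows from RefSeq (GRCm38.p6) run from 250 bases before to 50 bases after the most upstream RefSeq start site given for each gene, and 9 of the 10 genes had one, all except *Foxp2*. The *Zic4* and *Lhx9* windows lie inside the genes as GENCODE places them, downstream of its most upstream start, so the annotations differ for these genes. Capitals mark the E-box CACGTG, a palindrome recognised by basic helix-loop-helix factors. It was chosen after the sequences had been seen. It occurs once in the windows of *Prkcd*, *Gbx2* and *Zic1*, in no other of the 9 windows, and in 7.15% of the 32851 windows of all genes. The *Prkcd* window is chr14:30626159-30626458, the *Gbx2* window chr1:89931127-89931426 and the *Zic1* window chr9:91365719-91366018, all 3 on the minus strand, and the *Zic4* window is chr9:91368722-91369021 on the plus strand. Each sequence reads 5′ to 3′ along the gene.
Prkcd: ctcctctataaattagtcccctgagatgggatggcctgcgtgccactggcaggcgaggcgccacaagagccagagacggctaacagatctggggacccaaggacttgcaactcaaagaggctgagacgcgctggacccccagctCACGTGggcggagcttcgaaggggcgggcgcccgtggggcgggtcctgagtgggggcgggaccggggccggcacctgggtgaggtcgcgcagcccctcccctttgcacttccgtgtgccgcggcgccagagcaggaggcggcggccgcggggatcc
Gbx2: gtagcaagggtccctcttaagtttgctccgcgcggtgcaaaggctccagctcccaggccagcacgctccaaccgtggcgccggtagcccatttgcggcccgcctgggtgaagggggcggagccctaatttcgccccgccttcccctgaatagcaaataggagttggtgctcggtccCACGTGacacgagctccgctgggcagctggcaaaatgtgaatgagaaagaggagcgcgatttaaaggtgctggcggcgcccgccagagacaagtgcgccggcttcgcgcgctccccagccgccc
Zic1: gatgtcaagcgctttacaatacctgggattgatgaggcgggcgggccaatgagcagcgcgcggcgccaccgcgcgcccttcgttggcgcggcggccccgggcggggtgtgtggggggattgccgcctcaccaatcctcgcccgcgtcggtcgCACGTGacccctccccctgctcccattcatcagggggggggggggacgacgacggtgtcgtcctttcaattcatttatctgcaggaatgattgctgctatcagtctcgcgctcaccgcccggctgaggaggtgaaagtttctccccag
Zic4: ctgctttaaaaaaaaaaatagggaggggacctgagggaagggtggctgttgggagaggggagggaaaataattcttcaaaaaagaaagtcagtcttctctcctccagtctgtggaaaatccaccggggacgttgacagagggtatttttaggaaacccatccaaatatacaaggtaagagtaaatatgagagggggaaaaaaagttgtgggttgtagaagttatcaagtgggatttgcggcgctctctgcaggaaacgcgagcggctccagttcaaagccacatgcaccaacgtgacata
Searched on both strands, the TCF/LEF core CTTTGAT (3.73% of all windows), the nuclear receptor half-site AGGTCA (16.3%), the homeodomain core TAATTA (5.29%), the cAMP response element TGACGTCA (1.79%) and the AP-1 site TGANTCA (7.81%) were found in 0 of the 9 windows. A match or its absence describes only these letters in these windows.

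The LIM homeodomain genes *Lhx2* and *Lhx9* and the forkhead gene *Foxp2* did not pass the test in any contrast. *Lhx2* had 6.16, 6.54, 7.86 and 5.82 scaled TPM after control saline and 6.16, 4.93, 5.44 and 7.47 in the libraries labelled control cocaine. The cKO saline libraries had 3.78, 5.14, 6.02 and 7.36, and those labelled cKO cocaine had 7.65 and 8.91, above all 4 cKO saline libraries. That log2 change was 0.56 (SE 0.21, adjusted p = 0.0705 in limma). *Lhx9* ranged from 10.5 to 13.4 after control saline and from 9.06 to 19.2 in the libraries labelled control cocaine. It ranged from 6.66 to 11.9 after cKO saline and was 13.3 and 13.1 after cocaine under the cKO label, with a log2 change of 0.47 under the cKO label (SE 0.26, adjusted p = 0.220 in limma). *Foxp2* had group means of 8.82 ± 1.22 (SD, n = 4) for control saline, 10.5 ± 2.21 (SD, n = 4) for control-label cocaine, 8.60 ± 1.89 (SD, n = 4) for cKO saline and 9.04 ± 0.73 (SD, n = 2) for cKO-label cocaine. Its log2 change was 0.23 (SE 0.16, adjusted p = 0.320 in limma) under the control label and 0.09 (SE 0.19, adjusted p = 0.790 in limma) under the cKO label.

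*Zic1* and *Zic4* overlap head to head on chromosome 9 (91358058 to 91365810 on the minus strand and 91362413 to 91389348 on the plus strand, GRCm38), and some of their exons overlap, so reads from the shared stretch could be told apart only where strand was used. *Zic1* had 47.0, 37.1, 42.6 and 45.6 scaled TPM after control saline and 62.2, 44.1, 40.4 and 40.9 in the libraries labelled control cocaine. *Zic4* had 6.24, 6.27, 6.63 and 6.97 after control saline and 9.52, 4.90, 4.70 and 3.36 in those labelled control cocaine. Both genes were highest in control cocaine replicate 1, and for *Zic4* the other 3 cocaine libraries were below every control saline library. The log2 change under the control label was 0.10 for *Zic1* (SE 0.13, adjusted p = 0.603 in limma) and -0.29 for *Zic4* (SE 0.26, adjusted p = 0.436 in limma). Without control cocaine replicate 1 these were -0.04 and -0.56 (adjusted p = 0.808 and 0.0572 in limma). *Zic4* was called lower in the TPM as deposited, at -0.63 (adjusted p = 0.0368 in limma), or -0.30 relative to the median of all genes. The cKO saline libraries had 29.3, 35.6, 38.3 and 39.9 for *Zic1* and 2.65, 4.16, 5.00 and 5.81 for *Zic4*. The libraries labelled cKO cocaine had 48.9 and 45.6 for *Zic1*, above all cKO saline libraries, and 7.42 and 5.69 for *Zic4*. Neither change passed the test, with log2 values of 0.40 (SE 0.16, adjusted p = 0.0985 in limma) for *Zic1* and 0.56 (SE 0.31, adjusted p = 0.230 in limma) for *Zic4*.

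After saline, the cKO mice did not differ from controls in any of the 10 genes by both criteria, against 0.052% of tested genes called in either direction (7 genes). An unadjusted limma p under 0.05 was met by 4 of the 10 genes and 16.7% of all tested genes. The groups did not overlap for 2 of the 10, *Gbx2* and *Zic4*, both lower in the cKO, against 12.6% of tested genes. *Zic4* had a log2 difference of -0.56 (SE 0.26, adjusted p = 0.291 in limma) and an exact permutation p of 0.0286. *Rora* had a difference of 0.38 (SE 0.12, adjusted p = 0.151 in limma) and *Prkcd* one of 0.46 (SE 0.17, adjusted p = 0.192 in limma). The other 6 genes had log2 differences between -0.38 (*Lhx9*) and 0.15 (*Lef1*). The median was -0.15 over the 10 genes and 0.00 over all tested genes. Some lists of markers of other cells were one-sided in the same contrast, where 50.9% of all tested genes had positive values. All 10 habenula markers had negative log2 differences, with a median of -1.19, and their summed level was 66.4 to 95.8 scaled TPM in the control and 18.5 to 65.3 in the cKO saline libraries, without overlap. All 9 ependymal markers were negative (median -0.96, sums of 48.3 to 51.4 and 7.58 to 35.4) and all 8 oligodendrocyte markers positive (median 0.44, sums of 1465 to 1764 and 1804 to 2558), again without overlap, and 0 of the markers in these 3 lists were called. The log2 differences were also all positive for the 6 microglia markers and the 5 tested markers of cortex and hippocampus. The astrocyte list had 3 positive and 5 negative values, that of prethalamus and reticular nucleus 8 and 5, and the striatal list 5 and 2. Of the 14 hypothalamic markers 10 were tested, and *Oxt* was called lower (log2 -5.07, adjusted p = 0.0178 in limma). That call was lost without control saline replicate 1, 2 or 3 or cKO saline replicate 1 or 2 (-4.91 to -5.19, adjusted p = 0.0559 to 0.0924 in limma). The part of these markers in the *Gbx2* and *Zic4* differences was not tested.

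Between the libraries labelled cKO cocaine and control cocaine, 0 of the 10 genes were called, against 0.0371% of tested genes (5 genes), and 2 of the 10 had an unadjusted p under 0.05, against 11.9% of all tested genes. The groups did not overlap for *Lhx2* and *Rora*, 2 of the 10, against 17.5% of tested genes. The log2 difference was 0.45 for *Lhx2* (SE 0.21, adjusted p = 0.421 in limma) and -0.33 for *Rora* (SE 0.15, adjusted p = 0.410 in limma). It was 0.45 for *Gbx2* (SE 0.24, adjusted p = 0.487 in limma) and -0.42 for *Prkcd* (SE 0.20, adjusted p = 0.439 in limma).

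Whether the cocaine change differed between the genotype labels was tested by the interaction. It was called for 0 of the 10 genes, against 0.802% of tested genes, and 4 of the 10 had an unadjusted p under 0.05, against 18.1% of all tested genes. The interaction was 1.12 for *Gbx2* (SE 0.30, adjusted p = 0.0838 in limma) and 0.70 for *Lhx2* (SE 0.27, adjusted p = 0.188 in limma). It was -0.71 for *Rora* (SE 0.19, adjusted p = 0.0816 in limma) and -0.88 for *Prkcd* (SE 0.26, adjusted p = 0.101 in limma). In the same contrast *Maged1* had a log2 value of 2.28 (SE 0.16), since its level after cocaine was the reverse of the labels.

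The ratio of one gene to another within a library does not depend on the scaling, and 2 ratios show the pattern of *Gbx2* against *Rora* and *Prkcd*. They were chosen after the values had been seen and were not tested. The ratio of *Rora* to *Gbx2* was 2.72 to 3.92 in the control saline libraries and 5.92 to 9.24 in the cKO saline libraries. After cocaine it was 3.65 to 5.25 under the control label, and 2.46 and 2.66 under the cKO label. The ratio of *Prkcd* to *Gbx2* was 6.17 to 9.59 after control saline and 15.2 to 25.4 after cKO saline. After cocaine it was 12.6 to 17.7 under the control label, and 7.57 and 8.98 under the cKO label. For this second ratio, the control saline and cKO-label cocaine libraries had the low values, and the cKO saline and control-label cocaine libraries the high ones, without overlap. The same division of the libraries held for *Maged1*, in the opposite sense. It also held, in the sense of *Maged1*, for *Calb2*, a gene of midline thalamic neurons described below. Its levels were 119.7 to 136 and 128 to 129 scaled TPM in the first groups, and 44.6 to 103 and 66.2 to 111 in the others. How many other genes or ratios divide the libraries in this way was not counted. The related pairs gave ratios that overlapped between groups, with *Tcf7l2* to *Lef1* at 12.8 to 17.6 after control saline and 10.4 to 14.97 in the libraries labelled control cocaine.

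**Figure D3:**
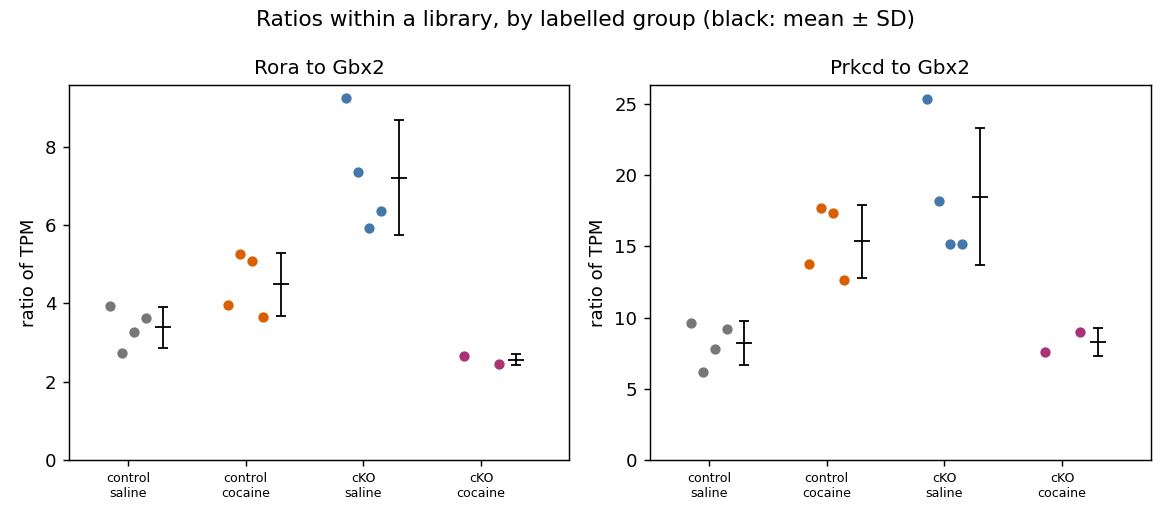
Ratio of *Rora* to *Gbx2* (left) and of *Prkcd* to *Gbx2* (right) within each library, on linear axes from 0, by labelled group with the mean ± SD in black. The *Prkcd* to *Gbx2* ratio was at most 9.59 in the control saline and cKO-label cocaine libraries and at least 12.6 in the others.

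Some libraries stood apart for many of the genes together. The cKO saline replicate 1 library was the lowest of all 14 for 6 of the 10 (*Tcf7l2*, *Gbx2*, *Lhx2*, *Lhx9*, *Zic1* and *Zic4*). The control cocaine replicate 1 library was the highest for 5 (*Lef1*, *Foxp2*, *Lhx9*, *Zic1* and *Zic4*). Control saline replicate 2 was the lowest for *Lef1*, *Rora* and *Prkcd*. Without cKO saline replicate 1, the difference between cKO and control after saline was -0.58 for *Gbx2* and -0.37 for *Zic4*, with adjusted p = 0.311 and 0.600 in limma.

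**Figure D4:**
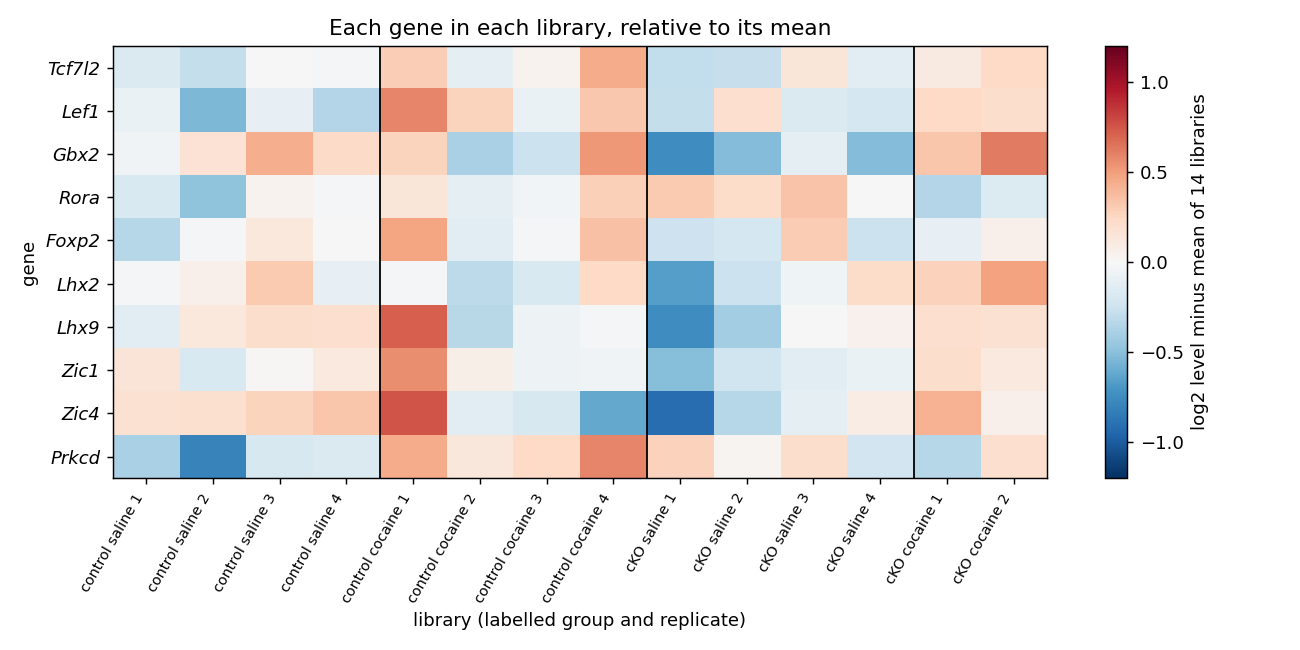
Each gene in each library as log2(scaled TPM + 0.5) minus its mean over the 14 libraries, with red above and blue below the mean and black lines between the 4 labelled groups. Control cocaine replicate 1 is above the mean for 9 of the 10 genes, and cKO saline replicate 1 for 2 of them.

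The habenula and prethalamic sums were at or near the ends of their range in control cocaine replicate 1 and cKO saline replicate 1. In the same libraries, in that order, the striatal sums were 40.8 and 35.3 (31.0 to 81.9 over all libraries). The midbrain and cerebellar sums were 38.6 and 33.6 (28.4 to 45.7). The cortical and hippocampal sums were 107 and 72.2 (55.1 to 111), and the hypothalamic sums 11.1 and 167 (11.1 to 529). In control saline replicate 2 the habenula sum was 76.1 and the prethalamic sum 163. The hypothalamic sum of that library was 529, the highest of the 14. The summed level of 10 habenula markers was 209.7 scaled TPM in control cocaine replicate 1, the highest of the 14, and 18.5 in cKO saline replicate 1. It was 66.4 to 95.8 after control saline, 13.8 to 209.7 in the libraries labelled control cocaine, 18.5 to 65.3 after cKO saline and 37.4 to 77.4 in those labelled cKO cocaine, with no marker at 0 in any library. The sum of 15 markers of the prethalamus and the reticular nucleus, which is made of inhibitory neurons, was 22.8 in control cocaine replicate 1, the lowest, and 256 in cKO saline replicate 1, the highest. It was 66.5 to 163 after control saline, 22.8 to 188 and 162 to 164 in the libraries labelled control and cKO cocaine, and 82.9 to 256 after cKO saline, with *Sp8* at 0 in every library. The *Zic4* level was lowest in cKO saline replicate 1 and control cocaine replicate 4 (2.65 and 3.36), the libraries with the lowest habenula sums (18.5 and 13.8). Other genes of the 10 differed from this, since control cocaine replicate 4 was the highest library for *Tcf7l2* and *Prkcd*. It was above the mean for 7 of the 10. The part of these markers in the *Zic4*, *Zic1*, *Lhx9*, *Lef1*, *Rora* and *Prkcd* values was not tested.

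**Figure D5:**
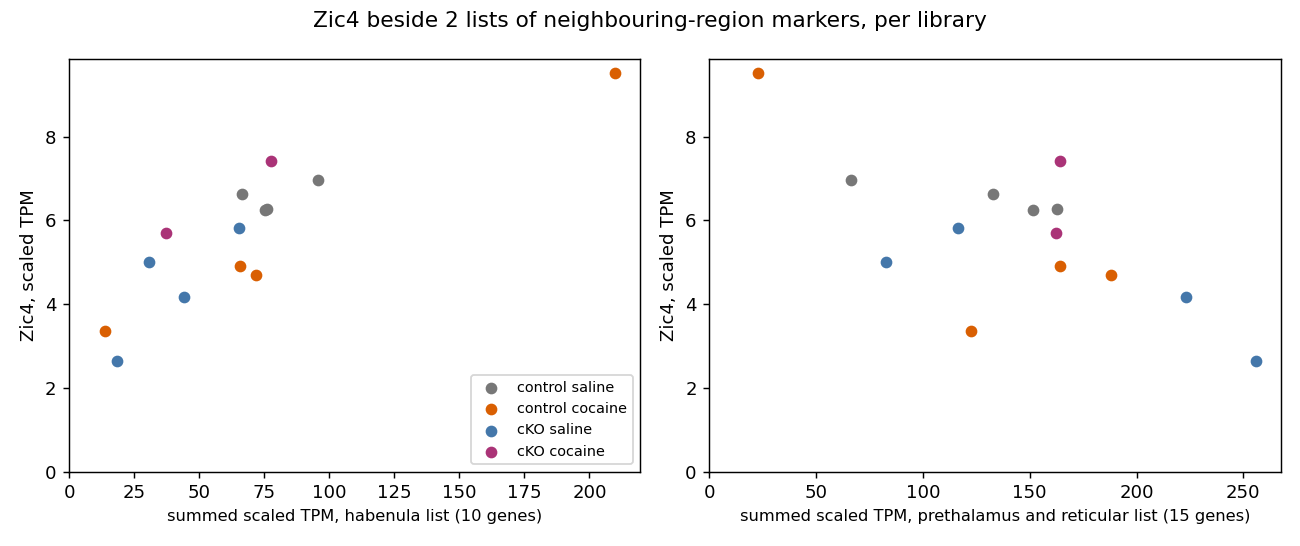
*Zic4* (scaled TPM) in each of the 14 libraries against the summed scaled TPM of 10 habenula markers (left) and of 15 markers of the prethalamus and reticular nucleus (right), with colors for the 4 labelled groups. *Zic4*, the gene of the 10 with the widest range, was highest (9.52) in the library with the largest habenula sum (209.7) and the smallest prethalamic sum (22.8).

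Some markers of other cells also differed in the contrasts in which members were called. The astrocyte and oligodendrocyte sums given here overlapped between the groups compared. The 14 hypothalamic markers summed to 146 to 529 scaled TPM after control saline and 11.1 to 141 in the libraries labelled control cocaine, without overlap. *Oxt* was at 0 in 3 libraries, *Hcrt* in 3, *Agrp* in 7 and *Nr5a1* in 12. Of the 14, 10 were tested. Under the control label 0 were called higher and 6 lower, against 1.43% and 1.66% of all tested genes. The 14 markers summed to 24.4 to 167 after cKO saline and 75.7 to 118 in the libraries labelled cKO cocaine. Under that label 1 was called higher (*Cartpt*, log2 2.5, adjusted p = 0.0142 in limma), against 1.97% of all tested genes. The *Cartpt* call was lost without cKO cocaine replicate 1 or 2 (2.63 and 2.37, adjusted p = 0.0552 and 0.116 in limma). The 8 astrocyte markers summed to 566 to 633 after cKO saline and 622 to 632 in the libraries labelled cKO cocaine, with 1 called higher (*Agt*, log2 0.60, adjusted p = 0.00146 in limma) and none at 0 in any library. The *Agt* value in the TPM as deposited was 0.21 (adjusted p = 0.0944 in limma). The 8 oligodendrocyte markers summed to 1465 to 1764 after control saline and 1628 to 2525 in the libraries labelled control cocaine, with 1 called (*Mobp*, log2 0.60, adjusted p = 0.0108 in limma, and 0.48 without control cocaine replicate 3) and none at 0 in any library. They summed to 1804 to 2558 after cKO saline and 1926 to 1971 in those labelled cKO cocaine. The 9 ependymal markers summed to 7.58 to 35.4 after cKO saline and 40.3 to 60.3 in those labelled cKO cocaine, without overlap, with 1 called (*Rsph1*, log2 1.27, adjusted p = 0.0354 in limma) and none at 0. The *Rsph1* call was lost without cKO saline replicate 1 (0.99) or cKO cocaine replicate 1 or 2 (1.32 and 1.23). They summed to 48.3 to 51.4 after control saline and 7.97 to 50.8 in those labelled control cocaine. The 5 choroid plexus markers summed to 13.4 to 1452 after control saline, with the highest value in replicate 1, and to 2.51 to 42.4 elsewhere. The part of these lists in the *Prkcd*, *Lef1* and *Gbx2* changes was not tested.

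Genes that share the thalamic relay program with the 10 were described from a list of 16, of which all 16 were tested. This list was chosen with earlier results of these data known. Under the control label 3 rose and 1 fell, against 1.43% of all tested genes called higher and 1.66% called lower. The list's median log2 change was 0.20 against 0.00 for all tested genes. *Tnnt1*, a slow troponin that marks thalamic relay nuclei, rose by 1.01 on the log2 scale (SE 0.21, adjusted p = 0.00433 in limma), and *Rgs16*, a regulator of G protein signalling, by 0.63 (SE 0.13, adjusted p = 0.00383 in limma). *Synpo2*, named after its values were seen, rose by 0.60 (SE 0.11, adjusted p = 0.00272 in limma). *Calb2*, which encodes the calcium-binding protein calretinin of midline thalamic neurons, fell by 0.69 (SE 0.21, adjusted p = 0.0296 in limma). Under the cKO label 2 rose and 0 fell, against 1.97% of all tested genes called higher and 1.17% called lower. The median there was 0.09 against 0.01. The 2 that rose were *Calb2*, by 0.95 (SE 0.25, adjusted p = 0.0200 in limma), and *Cacng3*, a regulator of AMPA receptors, by 0.68 (SE 0.16, adjusted p = 0.0116 in limma). The interaction was called for *Calb2* (1.64, adjusted p = 0.0392 in limma) and *Cacng3* (0.97, adjusted p = 0.0470 in limma), against 0.802% of all tested genes. These calls were lost in 18 and 17 of 26 alternatives, with values of 1.45 to 1.86 and 0.85 to 1.11 when single libraries were left out. *Tnnt1* kept its call in all 27 alternatives, and *Rgs16* and *Synpo2* lost it in 1, the TPM as deposited. The fall of *Calb2* was lost in 10 of 27, including without control saline replicate 2, 3 or 4 or control cocaine replicate 2, 3 or 4, where it was between -0.60 and -0.70 (adjusted p = 0.0559 to 0.0780 in limma). Its rise under the cKO label was lost in 7 of 27, including without cKO cocaine replicate 1 (0.96, adjusted p = 0.0836 in limma) or 2 (0.95, adjusted p = 0.125 in limma), and that of *Cacng3* in 4, including without cKO cocaine replicate 1 (0.56, adjusted p = 0.0965 in limma). *Calb2* had 119.7 to 136 scaled TPM after control saline, 66.2 to 111 in the libraries labelled control cocaine, 44.6 to 103 after cKO saline and 128 and 129 in those labelled cKO cocaine.

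Of a list of 69 Wnt and beta-catenin genes, 52 were tested, and 1 was called higher and 0 lower under each label, against the 1.43% and 1.97% of all tested genes called higher. *Fzd5*, a Wnt receptor, rose by 0.65 under the control label (SE 0.20, adjusted p = 0.0322 in limma) and was the 1 gene called there, but the call was lost in 10 of 26 alternatives, including without control saline replicate 1, 2 or 3 or control cocaine replicate 1 or 4, where the value was 0.48 to 0.68 (adjusted p = 0.0529 to 0.0906 in limma). *Rspo1*, a secreted enhancer of Wnt signalling, rose by 0.91 under the cKO label (SE 0.22, adjusted p = 0.0122 in limma), also the 1 gene called, and without cKO cocaine replicate 2 it was 0.87 (adjusted p = 0.105 in limma). Its interaction was 1.40 (SE 0.28, adjusted p = 0.0421 in limma), a call lost in 14 of 25 alternatives, with values of 1.26 to 1.56 when single libraries were left out. The medians of the list were 0.05 and 0.02 in these contrasts. Of 25 relatives of the 10 genes, 17 were tested, and *Tcf7l1*, the TCF family member best known as a repressor, was the 1 called under the cKO label (log2 0.61, SE 0.14, adjusted p = 0.00938 in limma). Without cKO cocaine replicate 1 or 2 it was 0.59 or 0.63 (adjusted p = 0.0534 and 0.0677 in limma). Its level was low, at 0.83 to 0.85 scaled TPM after cKO saline and 1.52 and 1.57 after cocaine under that label. The other TCF gene, *Tcf7*, had a mean of 0.81 over 14 libraries. Among the other ZIC genes described, *Zic2* had a mean of 32.4 and *Zic5* of 3.16 scaled TPM, and no relative was called under the control label. Of 26 thalamic patterning and projection neuron factors, 22 were tested and 0 were called in any contrast.

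The genes whose log2 level most resembled each of the 10 over the 14 libraries were ranked by Pearson's r. This is a description over libraries that differ in scaling factor and labelled group, and such differences enter every r. *Zic4* resembled *Amigo2* (r = 0.97), *Zic5* (0.94) and *Fibcd1* (0.94), and *Lhx9* resembled *Zic2* (0.94), *Fzd1* (0.92) and *Zic5* (0.91). *Zic1* resembled *Necab2* (0.94), *Fzd1* (0.92) and *Cacnb3* (0.91). *Gbx2* resembled *Nbl1* (0.96), *Ap2a2* (0.95) and *Oprm1* (0.94). *Rora* resembled *Kcnq3* (0.97), *Gabra4* (0.95) and *Atp2b1* (0.94). *Prkcd* resembled *Hspa12a* (0.99), *Peak1* (0.98) and *Adarb1* (0.97). *Tcf7l2* resembled *Rtn4rl1* (0.94) and *Pcsk2* (0.93), and *Lef1* resembled *Atf6b* (0.88), *Coro7* (0.88) and *Brinp2* (0.88). *Lhx2* resembled *Grm2* (0.88), *Camkv* (0.86) and *Cfap20* (0.85), and *Foxp2*, with the lowest values, resembled *B230209E15Rik* (0.85), *Prdm4* (0.82) and *Ddhd1* (0.82).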

How the data were processed

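RNA-seq libraries of unsorted thalamus (14 of 15 samples) were analysed. According to the study's methods and the submitters' processing notes, ribodepleted directional libraries were mapped to GRCm38.p4 with STAR 2.5.3a and quantified with salmon, and the authors deposited TPM for each library, 2 of the deposited tables with a decimal comma (their unit, listed as other, is also TPM). The depth is unknown from TPM, and no count was used. Groups follow the sample titles. Unweighted TMM factors (30% of log ratios and 5% of mean values trimmed on each side) were computed here, 0.5 was added and log2 taken, so fold changes of low genes are understated. A gene was tested where 3 or more libraries reached 1 TPM, in limma 3.58.1 (R 4.3.3), with 1 mean per group and a variance trend over intensity. Replicates are independent animals per the series design. The procedure was tested on simulated data. Promoter windows are from RefSeq (GRCm38.p6) and coordinates from GENCODE M21 (GRCm38). Figures used Python 3.11.15 and matplotlib 3.10.9.

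The members and gene lists were chosen with earlier results of these data known. Named were the 10 genes, *Maged1*, at most the 3 called genes of each list and contrast with the largest change, and the 3 genes most like each of the 10. Some items these rules would name are not reported here. As alternatives, scaling was left out or replaced by median-of-ratios or quantile normalization. Others were pseudocounts of 0.1 and 1, no filter or a mean of 5 TPM, a fit of the compared groups only, no intensity trend, a replicate block, groups by the genotype tag, the 10 libraries whose labels agree, no fold minimum and leaving out each library.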

Additional observations from a re-analysis of the deposited data

Results flagged for a closer look

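In 2 of the 30 gene and group combinations with 4 libraries, 1 library lay far from the others by Dixon's test at the 95% level, which chance gives in about 1 in 20 groups. *Foxp2* was 11.4 scaled TPM in cKO saline replicate 3, with the other 3 libraries between 7.54 and 7.81. *Zic1* was 62.2 scaled TPM in control cocaine replicate 1, with the other 3 libraries between 40.4 and 44.1. The part of marker levels in either value was not tested.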

How the results depend on the processing

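The log2 values named above for 59 gene and contrast combinations were recomputed under up to 27 alternatives, of which 14 left out 1 library each. Of 1577 recomputed values, 1395 kept their direction and their side of the threshold, 126 lost a call, 11 gained one and 45 changed sign. In none of the 27 alternatives was any of the 10 genes called between cKO and control after saline or after cocaine, nor in the 26 that gave an interaction.

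Under the control label, 2 of the 10 genes were called (*Prkcd* and *Lef1*, both higher), also 2 in the TPM as deposited but other genes and lower (*Gbx2* and *Zic4*), 0 with groups by the genotype tag and 1 with the libraries whose labels agree, and 1 to 2 when single libraries were left out. Under the cKO label 1 was called, 2 in the TPM as deposited (*Prkcd* and *Rora*, both lower), 2 with quantile normalization, 2 with no fold minimum, 0 with groups by the tag and 0 with the libraries whose labels agree, and 0 to 3 when single libraries were left out. With the replicate block it was 2 (*Lhx2* and *Gbx2*). Same-numbered libraries had a mean correlation of -0.014 over 18 pairs, and the others 0.0046 over 54 pairs, in values centred on their group mean. Pairing by replicate number was thus not visible, but a correlation over all genes cannot exclude it. The block is given only here. For the average of both labels 0 were called, 1 in the TPM as deposited (*Rora*, lower) and 2 with no fold minimum. The cause of these changes was not tested.

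Signs turned for the following values, of which *Oxt* alone had been called. In the TPM as deposited, where the median of all genes fell with cocaine, the cocaine values under the control label were -0.081 for *Tcf7l2*, -0.14 for *Rora*, -0.13 for *Foxp2* and -0.26 for *Zic1*. Under the cKO label they were -0.077 for *Tcf7l2*, -0.028 for *Lef1* and -0.29 for *Foxp2*, and the *Tcf7l2* average was -0.079. For cKO against control after saline they were 0.033 for *Tcf7l2* and 0.0042 for *Foxp2*. With groups by the genotype tag, the cocaine values under the control tag were 0.32 for *Gbx2*, 0.15 for *Lhx2*, 0.37 for *Lhx9* and 0.17 for *Zic4*, and under the cKO tag -0.059 for *Foxp2* and 0.027 for *Prkcd*. After saline, that grouping gave 0.26 for *Tcf7l2*, -0.032 for *Lef1*, 0.29 for *Gbx2*, 0.25 for *Foxp2*, 0.31 for *Lhx2*, 0.41 for *Lhx9*, 0.17 for *Zic1*, 0.37 for *Zic4* and 0.36 for *Oxt*. With the libraries whose labels agree, values were 0.065 for *Lhx9* under the control label, -0.052 for *Foxp2* under the cKO label, and after saline 0.25 for *Tcf7l2*, 0.21 for *Foxp2*, 0.071 for *Lhx2* and 0.035 for *Lhx9*. When single libraries were left out, *Lhx9* ran from -0.24 to 0.11 and *Zic1* from -0.038 to 0.17 under the control label, *Prkcd* from -0.41 to 0.13 under the cKO label, and after saline *Tcf7l2* from -0.11 to 0.033 and *Foxp2* from -0.18 to 0.014.

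The TPM keep no depth, so the counting error of the lower genes such as *Zic4* and *Lef1* is unknown, and 2 cocaine libraries under the cKO label limit every comparison that uses them.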
